A study of Homo sapiens with 42 samples.

Results

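A 390 kb stretch of chromosome 9, from 110.70 to 111.09 Mb in hg19, was described through its ligation contacts with 3 fixed points at higher coordinates. It was chosen by position alone and holds 39 windows of 10 kb, out of 450 windows that lay within 2 Mb of at least 1 of those points. On one side it adjoins the domain that carries KLF4, a zinc-finger transcription factor, and on the other it ends 20.1 kb short of a point named Outside. In the gene order of RefSeq (GRCh38.p14, used for order only), 24 annotated genes lie between KLF4 and ACTL7B, an interval that contains the stretch. None of them is protein coding: 11 are long non-coding RNAs and 13 are pseudogenes. The place of each such gene within the stretch was not determined here, since no annotation of hg19 was used.

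All libraries came from K562, an established chronic myeloid leukaemia line, carrying a fluorescent cell-cycle reporter (FUCCI) knocked in at the AAVS1 locus. Asynchronous cells were stained with Hoechst33342, a dye that reads DNA content, and sorted into G1 and 6 S-phase fractions, S1, S2, S3, S4, S5 and S6. Contacts were read from 3 primers: Proximal and Distal, which the labels put inside a chromatin fountain, and Outside, which they put beyond it. There were 21 groups of 2 libraries, 42 in all, and no label says whether both came from separate cultures. The p-values below therefore rest on the spread among these libraries alone, part of which can be technical.

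In proximity ligation, a restriction enzyme (here DpnII) cuts fixed chromatin and the loose ends are joined to ends that were close in the nucleus. Reading outward from a primer then lists the genomic places that touched the primer's site. Contact frequency falls steeply with distance along a chromosome, so the same stretch is a near neighbour of one primer and a far one of another. A chromatin fountain is a contact pattern in which both flanks of a source region meet each other over growing distances, and in S phase DNA is copied in a fixed regional order.

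Viewpoints were taken at the position with the most contacts, 111110106 for Outside, 111525048 for Distal and 111624875 for Proximal. The stretch lay 20.1 to 410.1 kb from Outside, 435.0 to 825.0 kb from Distal and 534.9 to 924.9 kb from Proximal, always on the lower-coordinate side. Every library listed 16350 contacts, each a single position, so the original sequencing depth is unknown. Contacts beyond 20 kb of the viewpoint and within 2 Mb of it, called local contacts here, numbered 6149 to 10957 per library. The stretch held 36978 contacts over the 14 Outside libraries, 10782 over the Distal ones and 5137 over the Proximal ones. A single library had 2078 to 3007 stretch contacts from Outside, 682 to 847 from Distal and 309 to 431 from Proximal, so Outside gives the tightest values and Proximal the loosest. No 2 libraries of a group were identical, and over all local windows the chi-square per degree of freedom between them ran from 1.33 to 3.08, above 1 in all 21 groups.

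From Outside, the share of local contacts in the stretch was largest in mid S phase. It was 24.0% and 24.6% in the G1 libraries, 26.7% and 27.1% in S1, 27.5% and 26.8% in S2, 27.9% and 27.4% in S3, 28.2% and 27.9% in S4, 25.8% and 25.6% in S5 and 23.0% and 24.1% in S6. Both libraries of each fraction from S1 to S5 lay above both G1 libraries, while the S6 libraries overlapped them. For S4 alone, that separation was found in 34.6% of the 26 tiles. S4 averaged 28.04% ± 0.244 and G1 averaged 24.3% ± 0.420 (SD, n = 2 each), 1.16-fold apart. A permutation test of F over the 7 fractions, which has no direction, gave F = 32.6 with an adjusted p of 0.00123 over 26 tiles of 390 kb from the 3 primers. That test called 80.8% of all tiles, so a difference between fractions was common in this neighbourhood. The S1 to S6 mean was 26.5% against 24.3% in G1, and this contrast did not pass (exact permutation test, two-sided, adjusted p = 0.119), with 10 of the 12 S libraries above both G1 libraries and 1 below.

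From Distal, the share was smaller in each successive fraction mean. It was 8.86% and 8.61% in the G1 libraries, 8.29% and 8.26% in S1, 7.88% and 8.11% in S2, 7.63% and 7.39% in S3, 7.18% and 7.73% in S4, 6.81% and 7.26% in S5 and 7.01% and 6.54% in S6. All 12 S libraries lay below both G1 libraries, a separation seen in 19.2% of the 26 tiles. The S1 to S6 mean fell to 7.51%, against 8.73% in G1, by 1.22 points (exact permutation test, two-sided, adjusted p = 0.0476, 23.1% of tiles called). The smallest p that 2 against 12 libraries allow is 0.011. Within S phase, S4 to S6 averaged 7.09% and S1 to S3 averaged 7.93%, a fall by 0.837 points (exact permutation test, two-sided, adjusted p = 0.0422, 15.4% of tiles called). Both calls were sensitive to leaving out 1 library. The first difference was then -1.35 to -1.10 points. Its call held without S1 replicate 2 or S6 replicate 2 and ended without any 1 of the other S libraries. Its p was already the smallest possible, and leaving out a library raises that limit. These ends therefore do not point to particular libraries, and with 1 G1 library left the test could not pass. The second call held without S3 replicate 2 or S4 replicate 2 and ended without any 1 of the 10 other S libraries. Its adjusted p was then up to 0.0844 in the same exact test. G1 libraries do not enter that contrast. Both calls also ended in the exact permutation test with each distinct position counted once (adjusted p of 0.286 and 0.0563). With 50 kb left out around the viewpoint they ended too (0.0635 and 0.0563 in the same test). They ended as well when splits were kept within replicate numbers, which allows fewer splits. The test over the 7 fractions gave F = 14.8 (permutation test, adjusted p = 0.00243) and kept its call without any 1 library, but with the whole library as denominator it was 2.81 (adjusted p = 0.0948 in the same permutation test).

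From Proximal, the share was lowest in S3 and S4 and higher again in S6. It was 5.87% and 4.94% in the G1 libraries, 5.06% and 5.51% in S1, 5.24% and 4.48% in S2, 4.00% and 3.80% in S3, 3.81% and 3.80% in S4, 4.41% and 4.59% in S5 and 4.91% and 4.96% in S6. Both S4 libraries lay below both G1 libraries, as in 61.5% of the 26 tiles, and the S6 libraries overlapped them. The fractions differed with F = 6.48 (permutation test, adjusted p = 0.0200), a call that ended without S4 replicate 1 (adjusted p = 0.0504) or S4 replicate 2 (adjusted p = 0.0508). With each distinct position counted once F was 0.818 (permutation test, adjusted p = 0.569). The S1 to S6 mean of 4.55% against 5.40% in G1 did not pass (exact permutation test, two-sided, adjusted p = 0.185), nor did S4 to S6 at 4.41% against S1 to S3 at 4.68% (adjusted p = 0.568).

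**Figure D1:**
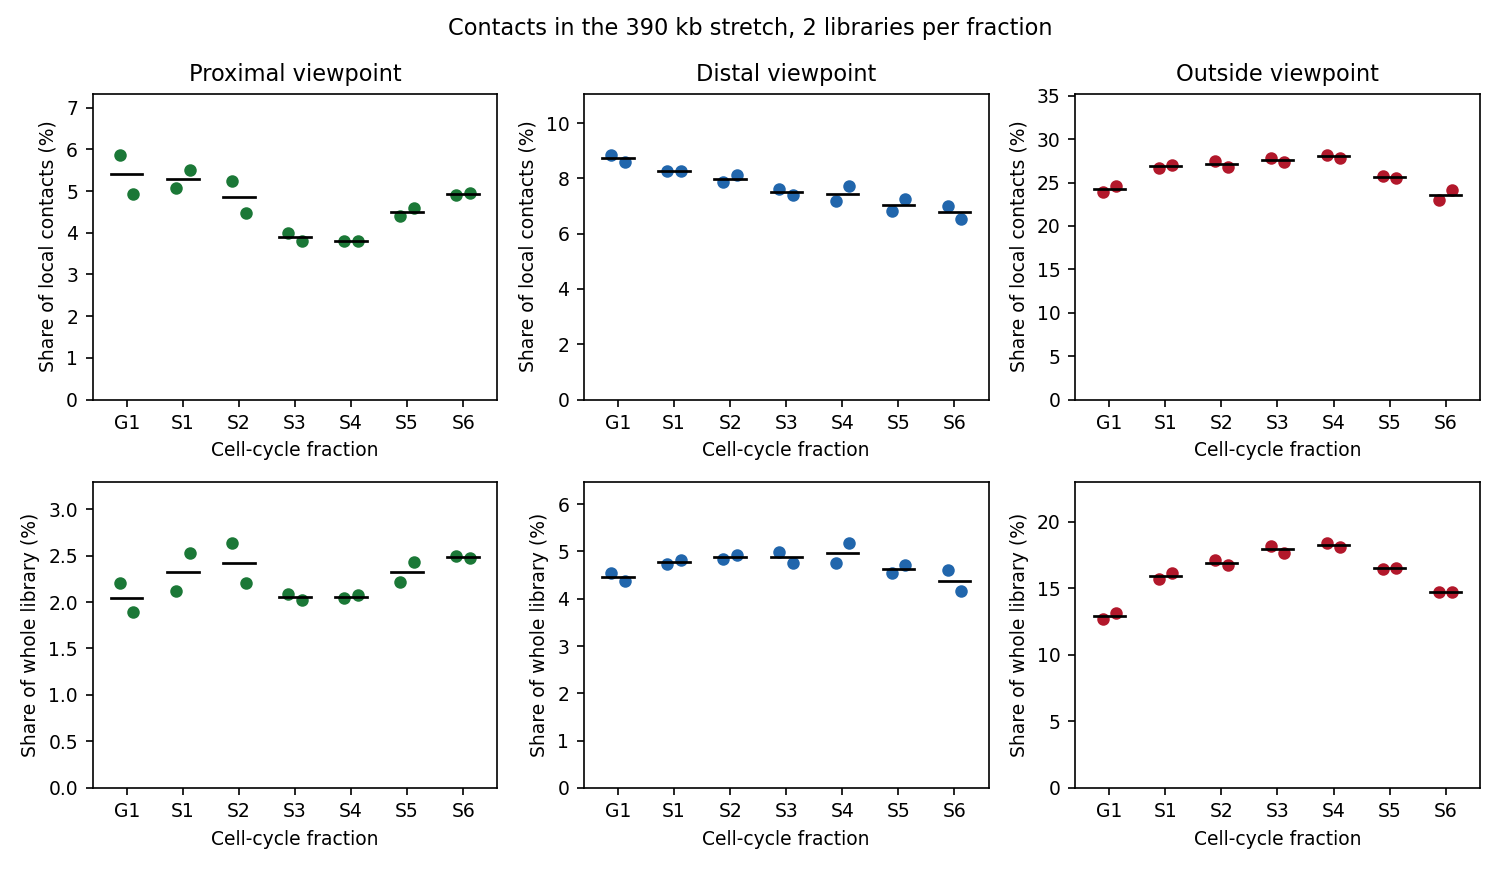
Share of contacts in the stretch by fraction for Proximal, Distal and Outside, in percent of local contacts (upper row) and of the whole library (lower row). Points are single libraries and bars are means of 2; in the upper row Outside means are highest in S4 at 28.04%, Distal means get smaller up to S6 at 6.78% and Proximal means are lowest in S4 at 3.81%, while in the lower row the Distal means stay between 4.39% and 4.96%.

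For the inner primers the denominator set the direction of S1 to S6 against G1. The Distal S6 mean lay below G1 on both scales, at 0.776 of it as a local share and 0.983 as a whole-library share. Local contacts made up 66.6% ± 0.623 of a Distal library in S4 and 51.1% ± 0.398 in G1 (SD, n = 2 each), and the same share averaged 65.1% in S4 and 53.2% in G1 for Outside, and 54.1% in S4 and 38.0% in G1 for Proximal. As a percentage of the whole library, the Distal stretch averaged 4.46% in G1 and, from S1 to S6 in order, 4.77%, 4.88%, 4.87%, 4.96%, 4.63% and 4.39%. Its S1 to S6 mean then lay above that of G1 by 0.290 points (exact permutation test, two-sided, adjusted p = 0.330), the opposite of the local share. The Proximal stretch likewise lay 0.228 points above G1 (adjusted p = 0.388 in the same exact test). For Outside the S1 to S6 mean lay above G1 on both scales, although S6 alone averaged 0.972 of the G1 level as a local share and 1.14 of it as a whole-library share. Its whole-library share averaged 12.9% in G1 and, from S1 to S6 in order, 15.9%, 16.9%, 17.9%, 18.2%, 16.5% and 14.7%. All 12 S libraries lay above both G1 libraries, as in 26.9% of tiles on this scale, and the mean rose by 3.79 points (exact permutation test, two-sided, adjusted p = 0.0357).

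The change in share differed between the Outside and Distal viewpoints. In limma on log2 shares of the tiles measured from both, a comparison added after the values had been seen, S1 to S6 against G1 was 0.35 higher on the log2 scale for Outside than for Distal (SE 0.0498, adjusted p = 2.07e-05, 3 of 7 tiles called, 42.9%). The S4 against G1 difference was 0.44 (SE 0.0652, adjusted p = 3.16e-05, 4 of 7 tiles called, 57.1%). With the whole library as the denominator the first was 0.28 (limma, adjusted p = 0.000940). The S4 to S6 against S1 to S3 change did not pass, with a difference of 0.08 (limma, adjusted p = 0.124, 14.3% of tiles called). Between Distal and Proximal no such contrast passed: the difference was 0.03 for S1 to S6 against G1, 0.27 for S4 against G1 and -0.08 for S4 to S6 against S1 to S3 (limma, adjusted p of 0.763, 0.0640 and 0.385, with 12.5%, 12.5% and 25% of 8 tiles called). Without Proximal G1 replicate 2 the S4 difference was 0.40. Leaving out either Proximal S1 library made the S4 difference pass. That gain came through the spread alone, since S1 does not enter this difference.

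The tile of equal length on the KLF4 side, from 110.31 to 110.70 Mb, gave a comparison that does not depend on library size. Per library, the ratio of stretch contacts to contacts in that tile was 1.60 and 1.67 for Outside in G1, 1.84 and 1.83 in S1, 1.78 and 1.81 in S2, 2.04 and 2.01 in S3, 2.16 and 2.32 in S4, 1.66 and 1.66 in S5 and 1.51 and 1.64 in S6. The ratio was thus largest in S4 and near or below the G1 level in S5 and S6. Its fractions differed with F = 31.7 (permutation test over 20 pairs of adjacent tiles, adjusted p = 0.000900, 45% of pairs called). Counting each distinct position once gave F = 2.93 (permutation test, adjusted p = 0.148). In the stretch, 66.5% and 60.8% of Outside contacts repeated a position already listed in the S4 libraries, against 57.3% and 55.9% in the G1 libraries, and the part of these repeats in the result was not tested.

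The Distal and Proximal ratios were also highest in S4. For Distal the mean was 0.983 in G1 and, from S1 to S6 in order, 0.954, 0.989, 1.13, 1.18, 0.929 and 0.949. For Proximal it was 0.936 in G1 and, in the same order, 0.910, 0.926, 1.11, 1.19, 1.04 and 0.842. Both S4 libraries of each of the 3 primers lay above both of its G1 libraries, by 1.37-fold for Outside, 1.20-fold for Distal and 1.27-fold for Proximal in the means. That separation was found in 45% of the 20 pairs of adjacent tiles. The parts of the ratio moved differently by primer. The Outside stretch held 3007 and 2959 contacts in S4, against 2078 and 2142 in G1. Its tile held 1392 and 1278, against 1295 and 1286. The Distal stretch held 776 and 847, against 744 and 715, and the tile 672 and 700, against 729 and 757. The Proximal stretch held 334 and 339, against 361 and 309, and the tile 264 and 305, against 340 and 381. The Distal fractions differed with F = 7.91 (permutation test, adjusted p = 0.0314), which ended without either S3 library (adjusted p of 0.0653 and 0.0524) or either S4 library (adjusted p of 0.0551 and 0.0761). The Proximal fractions did not pass (F = 1.56, permutation test, adjusted p = 0.389). Averaged over S phase the ratio did not pass in any primer: S1 to S6 against G1 differed by 0.17 on the log2 scale for Outside, 0.05 for Distal and 0.10 for Proximal (exact permutation tests, two-sided, adjusted p of 0.321, 0.747 and 0.648, 0% of pairs called).

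**Figure D2:**
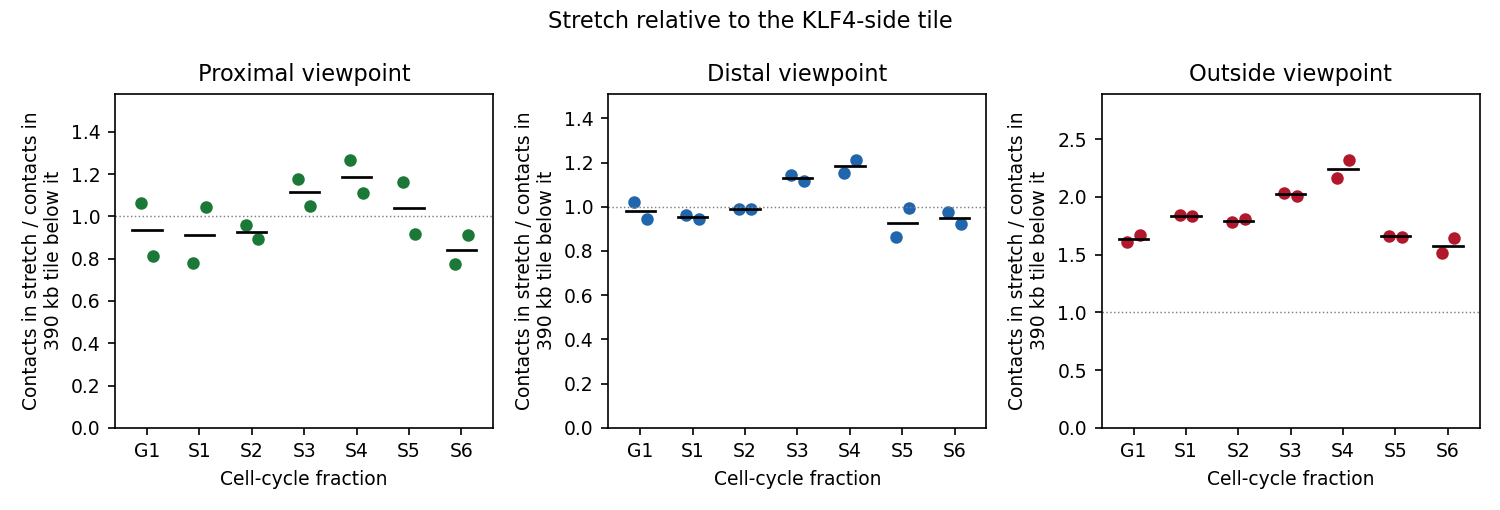
Ratio of contacts in the stretch to contacts in the 390 kb tile on its KLF4 side, by fraction and primer. Points are single libraries, bars are means of 2 and the dotted line marks equal numbers; the S4 libraries lie above both G1 libraries in each panel, at 2.16 and 2.32 for Outside.

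The tile on the other side, from 111.09 to 111.48 Mb, lies between the stretch and the inner viewpoints. It could be set whole against the stretch for Distal and Proximal, whereas the zone left out around the Outside viewpoint takes away part of it. The ratio of stretch to that tile was 0.222 and 0.247 in the Distal S4 libraries, against 0.344 and 0.328 in the Distal G1 libraries. For Proximal it was 0.323 and 0.332 in S4, against 0.543 and 0.464 in G1, and stood at 0.509 and 0.499 in S6. In both S4 libraries the stretch thus held fewer contacts relative to the tile nearer the viewpoint than in both G1 libraries. This held for both inner primers, and 45% of the 20 pairs showed a separation in this direction. The tile itself was fuller, with 3501 and 3427 contacts in Distal S4, against 2161 and 2177 in Distal G1. For Proximal it held 1033 and 1021 in S4, against 665 and 666 in G1. The stretch held 776 and 847 against 744 and 715 from Distal, and 334 and 339 against 361 and 309 from Proximal. From Outside the ratio to what remained of the tile ran the other way, at 0.856 and 0.824 in S4, against 0.731 and 0.734 in G1, and this value carries no test. In the test of adjacent tiles the log2 ratio of that tile to the stretch was higher in S1 to S6 than in G1, by 0.36 for Distal and 0.30 for Proximal. Neither passed (exact permutation test, two-sided, adjusted p of 0.0549 and 0.260, 0% of pairs called). The 7 fractions differed in both primers (permutation test of F, adjusted p of 0.0151 for Distal and 0.0279 for Proximal, 45% of pairs called).

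Contacts were spread unevenly along the stretch. The window at 111070001 had the highest mean over 14 libraries from every primer, with 222 ± 16.5 contacts per 10000 local contacts from Outside, 41.2 ± 8.56 from Distal and 19.2 ± 6.89 from Proximal (SD, n = 14 each). The next Outside windows were 111080001 with 214 and 111000001 with 146 per 10000. For Distal they were 111000001 with 36.7 and 111030001 with 30.1, and for Proximal 110780001 with 17.7 and 110860001 with 17.4. The window at 110790001 had the lowest mean from every primer, with 15.2 from Outside, 6.67 from Distal and 7.09 from Proximal. Median windows stood at 53.9 for Outside, 17.5 for Distal and 11.5 for Proximal.

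The order of windows was much alike from Outside and Distal although their distances differ. Across the 39 windows the mean profiles of these primers had a Pearson correlation of 0.886 and a Spearman correlation of 0.949. The corresponding values were 0.511 and 0.392 for Distal and Proximal, and 0.423 and 0.313 for Outside and Proximal. Neighbouring windows are not independent, both profiles share the fragment ends that DpnII can give, and distance from the viewpoint runs the same way in all 3, so these are descriptions. Within a primer, the S4 and G1 profiles correlated at 0.977 for Outside, 0.894 for Distal and 0.140 for Proximal (Pearson), the last over windows with a median of 11.5 contacts per 10000.

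**Figure D3:**
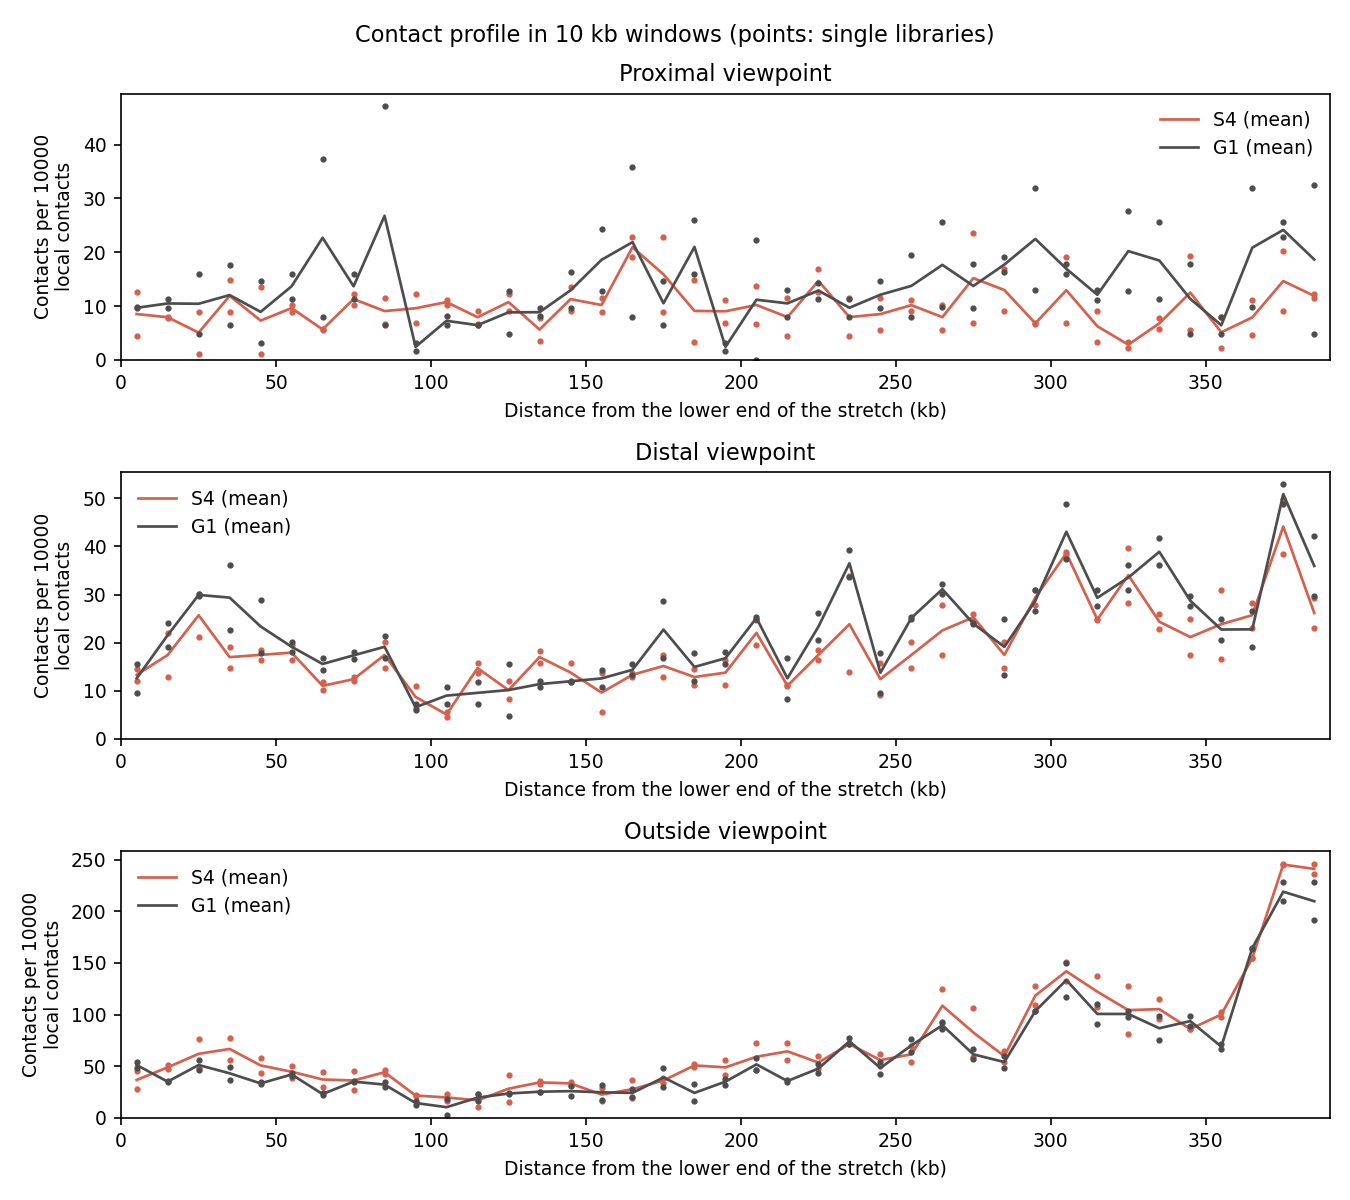
Contacts per 10000 local contacts in the 39 windows, by distance in kb from the lower end of the stretch, for S4 and G1. Lines are means of 2 libraries and points are single libraries; the vertical scale differs between panels, and the highest window of the Outside panel held 245 per 10000 in S4 and 219 in G1.

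The edges of the stretch did not coincide with a common step. Just inside the lower edge, windows averaged 45.1 per 10000 from Outside, 14.4 from Distal and 11.4 from Proximal, and just outside it 65.3, 22.4 and 10.6. At the upper edge, the inner window averaged 29.8 from Distal and 14.7 from Proximal, and the outer one 35.1 and 15.7. Within 50 kb of the edges, 1 window outside the stretch was called, 111100001, which had a log2 change of 0.87 in S4 against G1 from Distal (limma, adjusted p = 0.0292).

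Divided into 3 parts of 130 kb, lower, middle and upper, the stretch showed more contact towards the viewpoint from Outside and Distal. The upper part held 57.4% to 61.2% of the stretch contacts in the fraction means of Outside and 42.9% to 49.2% in those of Distal, more than either other part in every fraction. For Proximal the parts overlapped, with 29.8% to 41.3% in the upper, 29.3% to 37.2% in the middle and 28.2% to 38.3% in the lower part, and in S2, S4 and S6 the upper part was not the fullest. From Outside, the lower part held 5.07% and 5.21% of local contacts in S4, against 3.96% and 4.32% in G1, a ratio of the means of 1.24. The middle part had a ratio of 1.18 and the upper part, nearest to the viewpoint, 1.12. In S6 against G1 the Outside ratios were 1.08, 1.06 and 0.911 in the same order, so the upper part alone was below G1 there. From Distal, S6 against G1 gave 0.676 in the lower part, 0.805 in the middle and 0.814 in the upper part. The Distal lower part held 1.501% and 1.52% of local contacts in S6, against 2.13% and 2.33% in G1. From Proximal, the upper part held 1.10% and 1.38% in S4, against 2.15% and 2.27% in G1, a ratio of 0.560, while the lower part had 0.752 and the middle part 0.851. These parts carry no test.

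Single windows were tested in limma over all local windows of a primer with a mean of at least 10 contacts per library. This kept 39 of the 39 stretch windows for Outside, 37 for Distal and 14 for Proximal, and a kept Proximal window is by construction one of the fuller ones. From Outside no stretch window passed in S1 to S6 against G1 (0.546% of 183 windows called), in S4 against G1 (0.546%) or in S4 to S6 against S1 to S3 (0%). In limma 5, 5 and 3 of the 39 had an unadjusted p below 0.05, beside 17, 22 and 14 of all 183. The median log2 change of the 39 windows was 0.14 in S1 to S6 against G1, beside 0.03 over all 183, and 32 of the 39 were above 0, beside 54.1% of all. In S4 against G1 the median was 0.21, beside -0.03 over all windows. With scaling to the whole library 4 stretch windows rose in S1 to S6 (3.83% of windows called) and 6 in S4 (6.56% called). A quasi-Poisson model called 0, 0 and 1 stretch windows in the 3 Outside contrasts. The share of all windows called by that model is not given here.

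From Proximal none of the 14 tested windows passed in S1 to S6 against G1 (3.28% of 183 windows called), S4 against G1 (12.6%) or S4 to S6 against S1 to S3 (0%). In limma 0 of the 14 had an unadjusted p below 0.05 in any of these, beside 36, 44 and 24 of all 183. The quasi-Poisson model also called 0. The median of the 14 in S4 against G1 was -0.43, beside 0.00 over all windows, and 2 of the 14 were above 0, beside 50.3% of all. From Distal none of 37 passed in S1 to S6 against G1 (8% of 250 windows called) or S4 against G1 (22% called), and 0 in the quasi-Poisson model. In these contrasts 1 and 3 had an unadjusted p below 0.05 in limma, beside 62 and 86 of all 250. Medians there were -0.22 and -0.19, beside -0.01 and -0.03 over all 250.

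The exception was late against early S phase from Distal, where 4 of 37 stretch windows fell, beside 5.2% of all 250 windows that fell and 14% called in either direction. At 110950001 the S4 to S6 libraries had 11.5, 19.0 and 21.4 contacts per 10000 (lowest, median, highest), against 25.2, 26.0 and 27.5 in the S1 to S3 libraries and 25.0 and 25.3 in G1. All 6 late libraries lay below all 6 early ones, and the log2 change was -0.55 (SE 0.193, limma, adjusted p = 0.0389). At 110730001 the S4 to S6 libraries had 11.5, 18.4 and 32.1, against 23.9, 30.03 and 39.7 in S1 to S3. There 5 of the 6 late libraries lay below all early ones, with a log2 change of -0.64 (SE 0.186, limma, adjusted p = 0.00864). The G1 libraries, at 22.6 and 36.1, spanned most of the early range. At 110860001 the values were 4.58, 12.6 and 15.9 in S4 to S6, against 12.3, 17.5 and 24.9 in S1 to S3, a log2 change of -0.69 (SE 0.248, limma, adjusted p = 0.0407). At 110710001 they were 5.59, 12.4 and 21.9, against 9.48, 19.0 and 30.01, a log2 change of -0.64 (SE 0.228, limma, adjusted p = 0.0392). In these last windows early and late libraries overlapped, with 3 and 2 of the 6 late libraries below all early ones. All 4 windows were picked by this same contrast, so these counts describe them and add no support. How many of the 250 windows show such a separation was not determined.

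None of the 4 passed in limma with 1 common spread (no trend) or in the quasi-Poisson model, and whole-library scaling called 1 stretch window lower (1.6% of windows fell on that scale). The window at 110730001 kept its call without any 1 library (limma, adjusted p of up to 0.0459). The call at 110710001 ended without S1 replicate 1, either S2 library, S3 replicate 1, S4 replicate 1, S5 replicate 2 or S6 replicate 1 (adjusted p of up to 0.273). That at 110860001 ended without S1 replicate 1, either S2 library, S3 replicate 1, either S4 library, S5 replicate 1 or S6 replicate 2 (up to 0.228). That at 110950001 held only without either G1 library, S4 replicate 2 or S6 replicate 1 (up to 0.177). A direct test of whether late against early S phase changed differently from Outside and Distal called 0 of 37 stretch windows (limma, 1.16% of 172 windows called, 0 in the quasi-Poisson model). In limma 3 of the 37 had an unadjusted p below 0.05, beside 21 of all 172. The same test of S1 to S6 against G1 also called 0 (0.581% called, 0 in the quasi-Poisson model). In limma 4 of the 37 had an unadjusted p below 0.05, beside 16 of all 172. Of the 37 windows 33 were above 0, beside 60.5% of all, and the median was 0.37, beside 0.14 over all 172. Between Distal and Proximal both tests called 0 of 14 windows (0.599% and 0% of 167 called, 0 and 1 at an unadjusted p below 0.05, 0 in the quasi-Poisson model).

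**Figure D4:**
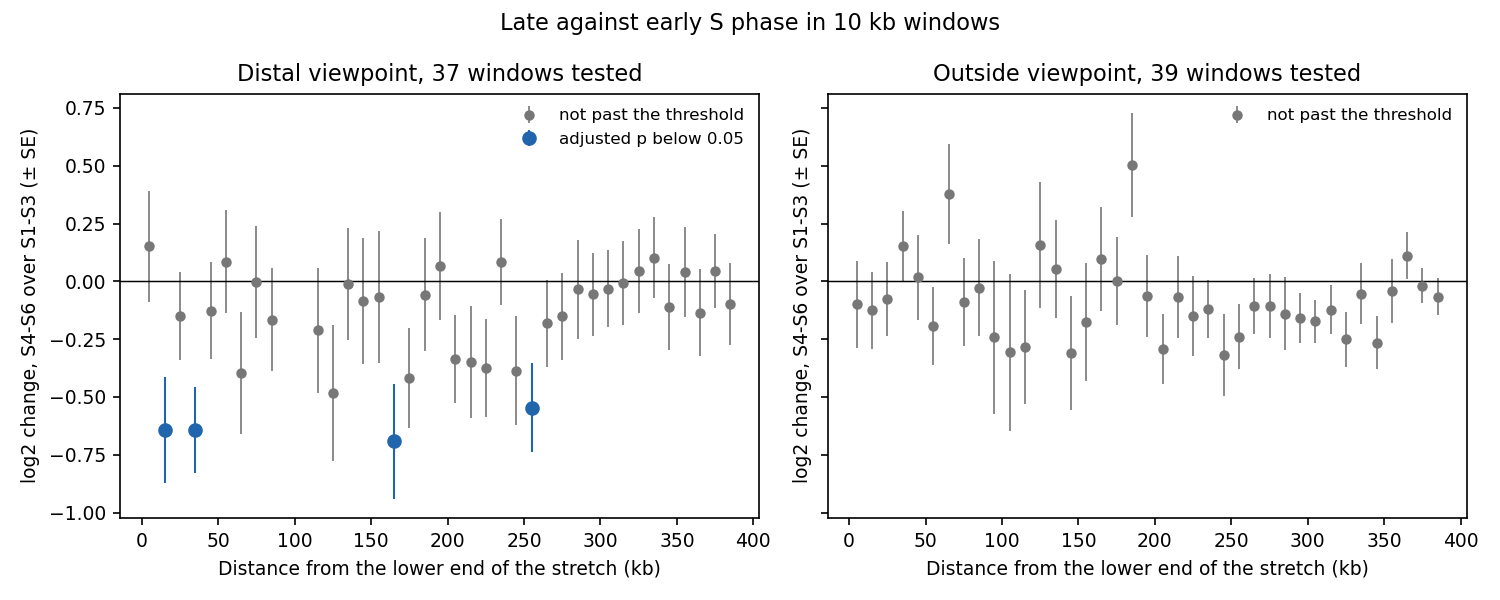
Log2 change of S4 to S6 over S1 to S3 in each tested window, by distance in kb from the lower end of the stretch, for Distal (37 windows) and Outside (39 windows). Bars are standard errors and larger points are windows past an adjusted p of 0.05 in limma; the 4 such Distal windows lie between -0.69 and -0.55, and no Outside window is past it.

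No single position dominated the stretch. Positions were counted as listed, and close neighbours such as 111084830 and 111084833 were not merged. The 5 fullest positions held 1.94% of the stretch contacts from Outside, 1.15% from Distal and 1.93% from Proximal. From Outside these were 111076429 and 111084830 with 152 contacts each, 111089998 with 145, 111084833 with 135 and 111069269 with 132, each seen in all 14 libraries. From Distal, 110902570 had 28 contacts over 12 libraries, 111070726 had 27, 110731853 had 24, 111009452 had 23 and 111051327 had 22. From Proximal, 110856530 had 21 contacts over 7 libraries, 110863820 and 111089998 had 20 each, and 110928752 and 111085167 had 19 each. The Proximal position 110928752 was seen in 4 libraries, with 8 of its contacts in 1 of them.

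The primers reached overlapping sets of positions. Contacts fell on 3065 distinct positions from Outside, 2837 from Distal and 1427 from Proximal, 4571 in all, of which 739 were seen from all 3 primers. Distal and Proximal shared 1119 positions, 39.4% of the Distal and 78.4% of the Proximal set. Outside and Distal shared 1556, 50.8% of the Outside and 54.8% of the Distal set, and Outside and Proximal shared 822, 26.8% and 57.6% of their sets. Positions seen in only 1 library made up 38.9% of the Outside, 36.0% of the Distal and 47.0% of the Proximal set. Outside alone had positions present in all 14 of its libraries, 114 of them, against 0 for Distal and 0 for Proximal. Outside also had the most contacts in the stretch, 36978 against 10782 for Distal and 5137 for Proximal. The part of these numbers in the overlaps and in the presence across libraries was not tested.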

How the data were processed

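Contact libraries of 3 primers and 7 cell-cycle fractions, 2 per group, were grouped by GEO's labels. Per the labels' protocols, DNA was digested with DpnII, ligated in situ, sonicated, extended from a biotinylated primer and joined to a barcoded adapter. Cutadapt, bedtools and the build hg19 are listed in the submitters' processing notes, which give no versions. The aligner and the handling of molecular barcodes are not given in any source used. As stated per the file headers, the authors' files list 1 position per line with no value column, and no other measure such as a score was deposited. Each library held 16350 lines, so the depth before deposition is unknown and precision is limited by the lines in the stretch.

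The stretch is chr9:110700001-111090000 in hg19, and the tiles beside it run from 110310001 to 110700000 and from 111090001 to 111480000. Lines were counted in 10 kb windows and in 390 kb tiles laid end to end from the stretch. Windows averaging 10 lines or more per library were tested with limma 3.58.1 (R 4.3.3; eBayes with trend) on log2 of the scaled count plus a pseudocount (0.907 lines in Proximal libraries, 1.84 in Distal and 0.944 in Outside ones), with 1 model of 7 fractions per primer, and were Benjamini-Hochberg adjusted over all windows of a primer. Changes of low windows are understated on that scale. Tile shares used two-sided exact permutation tests over libraries, adjusted over 26 tiles, and ratios of adjacent tiles over 20 pairs. The test over the 7 fractions (100000 resamples), the tile comparison between primers in limma and the ratios to the tile above and to the mirror stretch were added after the data were seen. Named windows were those called, the 3 fullest and the emptiest of each primer, the 5 fullest positions and the 3 parts of 130 kb. Members, lists and tests were chosen with earlier results of these data known. The window and tile tests were tested on simulated data. Alternatives covered the denominator, repeated positions, the excluded zone, window size, the low-count filter, the pseudocount, the trend, a quasi-Poisson model, trimmed edges, a replicate block and leaving out each library. Window values of same-numbered libraries were little correlated: of 21 pairs per primer, 4 for Proximal, 2 for Distal and 4 for Outside had deviations correlated above 0.1. This does not exclude an effect of the replicate number, which repeated positions followed. No sequences are shown, since no hg19 genome was used. Python 3.11.15 with numpy 2.4.6, pandas 2.3.3 and matplotlib 3.10.9 was used.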

Additional observations from a re-analysis of the deposited data

Results flagged for a closer look

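The share of local contacts in the stretch changed differently from the Outside and Distal viewpoints, by a test of the difference itself (limma on log2 tile shares). S1 to S6 against G1 was 0.35 higher on the log2 scale for Outside than for Distal (adjusted p = 2.07e-05), and over the alternatives run, left-out libraries included, the adjusted p stayed at or below 0.00597. S4 against G1 was 0.44 higher (adjusted p = 3.16e-05, at most 0.0103 over the alternatives run). In these contrasts 3 and 4 of the 7 shared tiles were called (42.9% and 57.1%). As a local share, all 12 Distal S libraries lay below both G1 libraries, as in 19.2% of the 26 tiles. From Outside 10 of 12 S libraries lay above both. As a share of the whole library, 10 of 12 Distal S libraries lay above both G1 libraries and 1 lay below. All 12 Outside ones lay above both on that scale. The primers also differ in their distance from the stretch and in the share of repeated positions, and the part of either in the result was not tested.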

How the results depend on the processing

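Of the alternatives other than left-out libraries, 187 gave the same call or a like value, 29 ended a call, 12 moved a count, 5 reversed a sign and 1 gained a call. With the whole library as denominator, the Distal share was 0.290 points above G1 in S1 to S6, and -0.185 points in S4 to S6 against S1 to S3 (adjusted p = 0.426). F over the 7 fractions was 2.81 for Distal (0.0948) and 1.94 for Proximal (0.204). The Outside difference was 3.79 points (0.0357), the Proximal ones 0.228 and 0.0214 points, and Distal minus Proximal was -0.061 for S1 to S6 against G1. Each distinct position counted once gave Distal shares of -0.834 (0.286) and -1.15 points (0.0563), F of 0.818 for Proximal, F of 2.93 for the Outside ratio and -0.057 for Distal minus Proximal. Leaving out 50 kb around the viewpoint gave -1.45 (0.0635) and -1.10 points (0.0563), and trimmed edges gave -1.17 (0.0714). The replicate block, which allows fewer splits, left -1.22 (0.0884), -0.837 (0.0780) and F of 7.91 for the Distal ratio (0.0683) unchanged in size. It changed no other call. Window values of same-numbered libraries were little correlated (median correlation 0.0251 in Proximal, -0.0226 in Distal and 0.0379 in Outside libraries). Repeated positions did follow the replicate number, and whether that number affected the shares was not tested. The cause of the changes over the alternatives was not tested.

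Counts of stretch windows called in Distal late against early S phase, 4 as reported, were 1 with whole-library scaling, 2 with distinct positions, 1 with 5 kb windows, 2 with 30 kb windows, 1 with no low-count filter and 0 without the trend or in the quasi-Poisson model. Windows of 30 kb gave 3 and 1 for Proximal in S4 against G1 and late against early S phase, whole-library scaling gave 4 and 6 for Outside, and the quasi-Poisson model gave 1 for Outside in late against early S phase. With 5 kb windows or distinct positions no Proximal stretch window remained to be tested. Apart from whole-library scaling, the share of all windows called under each of these settings is not given here. These counts therefore cannot be set against that share. With 5 kb or 30 kb windows the number of windows in the stretch also differs.

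Leaving out 1 library gave Distal shares of -1.35 to -1.10 and of -0.966 to -0.728 points, F of 4.61 to 12.1 for the Proximal share and F of 5.02 to 18.3 for the Distal ratio. The log2 ratio to the KLF4-side tile ran from -0.00437 to 0.107 and from -0.0646 to 0.0323 for Distal, and from -0.0983 to 0.290 and from -0.0148 to 0.127 for Proximal. Distal minus Proximal ran from -0.0917 to 0.159 for S1 to S6 and from 0.146 to 0.397 for S4 against G1. The Distal late against early count ran from 1 to 4: it was 1 without S1 replicate 1, either S2 library, S3 replicate 1 or S4 replicate 1, and 2 without either S5 library or S6 replicate 2. Counts of 0 became 1 for Distal in S1 to S6 (without S1, S4 or S6 replicate 2) and in S4 against G1 (without S4 replicate 2), for Outside in both contrasts (without G1 replicate 2), and for Outside minus Distal in late against early S phase (without Distal S4 replicate 2 or S5 replicate 1, or Outside S4 or S5 replicate 2). Few contacts limit single windows, most of all from Proximal.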

Other observations

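The stretch was also set against its mirror image, the 390 kb at equal distance on the other side of each viewpoint, with no test. For Outside the ratio of stretch to mirror contacts was 0.824 and 0.780 in the S4 libraries, against 0.699 and 0.703 in the G1 libraries. For Distal it was 0.457 and 0.508 in S4, against 0.970 and 0.989 in G1, and stood at 0.459 and 0.458 in S6. For Proximal it was 0.305 and 0.302 in S4, against 0.685 and 0.607 in G1, and 0.408 and 0.439 in S6. The stretch thus held more contacts relative to its mirror in S4 than in G1 from Outside, and fewer from Distal and Proximal. In these libraries of equal size the Distal mirror held 1699 and 1668 contacts in S4, against 767 and 723 in G1. The Distal stretch held 776 and 847, against 744 and 715. The Proximal mirror held 1094 and 1121 in S4, against 527 and 509 in G1. The Proximal stretch held 334 and 339, against 361 and 309. The lower inner ratios thus went with fuller mirrors. From Outside both the stretch and its mirror held more contacts in S4. How common such a separation is was not determined.

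Repeated positions followed the replicate number. In the stretch, replicate 1 had the larger share of contacts that repeat a listed position in 7 of 7 fractions for Outside, 7 of 7 for Distal and 6 of 7 for Proximal. For Outside the shares ran from 57.3% to 67.7% in replicate 1 and from 55.9% to 61.4% in replicate 2. For Distal they ran from 24.5% to 36.9% and from 20.4% to 27.0%, and for Proximal from 39.2% to 60.4% and from 30.8% to 47.3%, in the same order.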
